A study of Mus musculus with 6 samples.

Results

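The chromatin machinery was read through 56 genes and 125 probe sets, out of the 8511 genes that the arrays named by a single symbol. They were taken by symbol, as all genes beginning with Hdac, Smarc, Chd and a digit, Cbx, Kdm, Kat and a digit, Kmt, Dnmt, Hmgn, Anp32 or H1f. The study compared CD4+CD8+ double-positive thymocytes of Sox13 transgenic C57BL/6 mice with those of wild-type littermates, all 6-week-old females, to ask whether the HMG-box factor Sox13 can change the gene program of alpha-beta lineage cells. RNA of experiment 1 was hybridised to Mu11K A and B arrays and that of experiment 2 to the U74A version 2 array, with 1 transgenic and 1 wild-type array of each type, so that each genotype had 3 arrays. Thymocytes of 2 or more mice were pooled for each sort. The A and B arrays carry different probe sets and count as 1 replicate, so that the only replication is between 2 pairs of pooled samples, and the limma p-values lean mainly on a variance shared over all genes. The sources used here do not give the promoter that drives the transgene, nor whether the experiments drew on separate sorts.

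DNA in the nucleus is wound on histone octamers and held by linker histones, and its packing sets which genes can be read. Enzymes add and remove acetyl and methyl groups on histone tails, reader proteins bind these marks, and ATP-driven remodelers slide or evict nucleosomes. In the thymus, this machinery takes part in silencing and opening Cd4 and Cd8 and in the rearrangement of the T cell receptor loci. In sorted bulk RNA, fewer cells of a type and less RNA per cell cannot be told apart.

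Intensities are given after scaling each array to a trimmed mean of 500, with readings under a floor of 100 set to 100. A ratio is the log2 of transgenic over wild-type intensity, averaged over the probe sets of a gene, and a fold against a reading below the floor is a lower bound. The intensity of a probe set is compared only with that of the same probe set, and in each pair of readings the transgenic one comes first. With so few arrays, the precision of each value is limited by their number. Of the 56 genes, 43 were on the arrays of experiment 1 and 54 on that of experiment 2. A reading over the floor was found for 38 genes in experiment 1 and 46 in experiment 2, for 33 of them in both experiments, and 29 were above it on all arrays. In all, 5 genes stayed below the floor throughout, namely the remodeler Chd7, the polycomb reader Cbx7, the linker histones H1f3 and H1f8, the latter known from oocytes, and Kdm5d, a Y-linked demethylase in mice labelled female. Hmgn2 and Cbx3 had no single-symbol probe set on the U74A array, and 13 genes were on that array alone.

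Sox13 itself was far higher in the transgenic samples. Its probe set read 5951 against a wild-type reading below the floor in experiment 1, at least 59.5-fold, and 3832 against 599.6 in experiment 2, or 6.39-fold. All 7 double-positive marker genes read in experiment 1 and all 8 in experiment 2 were above the floor in both genotypes, with summed intensities of 53310 against 60710 and of 102600 against 107600, transgenic before wild type. Their log2 ratios ran from -2.02 for Rag2 to 1.61 for Ptcra in experiment 1, with a median of -0.11. In experiment 2 they ran from -0.37 for Cd4 to 0.58 for Ptcra, with a median of 0.02. Markers of other cells were also read, in the transgenic and wild-type samples by 4 and 4 of 7 B cell genes in experiment 1 and 6 and 5 of 7 in experiment 2, by 3 and 5 of 6 and 2 and 3 of 6 erythroid genes, by 1 and 1 of 3 and 1 and 1 of 6 natural killer genes, by 5 and 5 of 7 and 6 and 3 of 9 myeloid genes and by 0 and 2 of 7 and 2 and 3 of 8 stromal and epithelial genes. The summed intensity of B cell genes was 23260 against 16440 and 18810 against 16970, that of erythroid genes 3636 against 1250 and 2434 against 1058, that of natural killer genes 8804 against 1735 and 1862 against 1205, that of myeloid genes 3303 against 3778 and 1795 against 1565, and that of stromal and epithelial genes 1400 against 1547 and 1941 against 2393. The natural killer gene above the floor was Gzma alone, at 8604 against 1535 and 1262 against 605.2. Among the erythroid genes, the globins Hba-a1 and Hbb-b2 had log2 ratios of 1.90 and 2.76 and of 3.04 and 1.54. Car2, at -0.98 and -1.64, and Gata1, at -0.52 and -0.07, were lower in both, and Klf1 was at 0.06 in experiment 1. Of the defining markers, Cd22, Alas2, Gzmb, Epcam, Krt8 and S100a9 were below the floor in both genotypes of both experiments, and Klrd1, Klrk1 and Ncr1 in experiment 2. The part of these cells in the values of the chromatin genes was not tested.

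None of the 33 chromatin genes measured in both experiments passed the test in either direction, limma with Benjamini-Hochberg adjustment over 3237 genes. The background was 5 genes higher, or 0.154%, and 0 genes lower, or 0%. At an unadjusted p under 0.05 there were 0 chromatin genes higher, against a background of 2.5%, and 2 lower, Chd1 and Kdm3a, against a background of 3.92%. The direction was the same in both experiments for 14 genes. There were 6 higher, which is 18.2% of the 33 against a background of 23.9% of all genes, and 8 were lower, which is 24.2% against 30.4%. For the other 19 genes, or 57.6%, the experiments gave opposite signs. The same sign thus came up in 42.4% of the chromatin genes and in 54.3% of all genes.

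**Figure D1:**
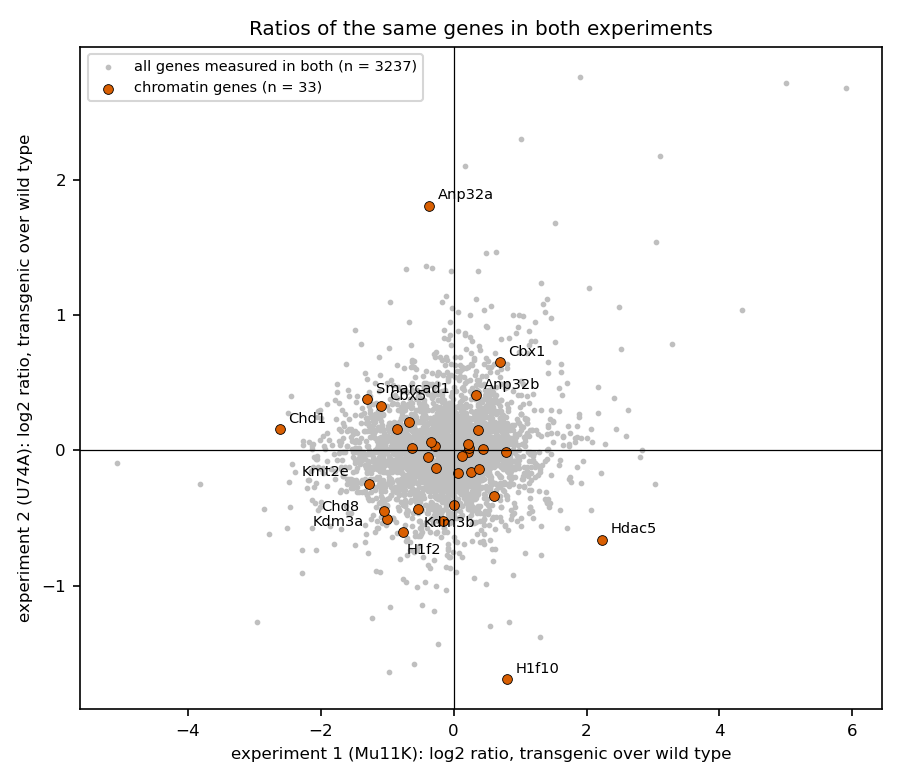
Each point is a gene measured in both experiments, with its log2 ratio (transgenic over wild type) in experiment 1 on the horizontal and in experiment 2 on the vertical axis, for all 3237 genes in grey and the 33 chromatin genes in orange. Chd1, Hdac5, H1f10 and Anp32a lie far out along one axis, while Kdm3a, Chd8, Kmt2e and H1f2 lie in the lower left and Cbx1 and Anp32b in the upper right.

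The spread of the ratios differed between the experiments. In experiment 1 the chromatin genes had a median log2 ratio of -0.27 and an SD of 0.82 over 38 genes, beside a median of -0.07 and an SD of 0.76 over all genes, and ran from -2.62 to 2.23. In experiment 2 the median was 0.01 and the SD 0.49 over 46 genes, beside -0.03 and 0.33 over all genes, and the range was -1.69 to 1.81. In experiment 1, 16 genes were higher and 22 lower in the transgenic sample, and in experiment 2, 24 were higher and 22 lower. The share higher was thus 42.1% and 52.2%, against a background of 45.6% and 45.4% of all genes. With each array scaled to its median instead, the split of experiment 1 was 20 higher and 18 lower and the chromatin median 0.04, while the median of all genes moved to 0.27.

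A difference of 2-fold or more was seen in 9 readings. In experiment 1, 1 chromatin gene was 2-fold higher, which is 2.63% against a background of 5.25%, and 6 were 2-fold lower, which is 15.8% against 11.7%. The gene above was Hdac5, and those below were Chd1, Chd8, Kmt2e, Smarcad1, Cbx5 and H1f6. With median scaling 4 were 2-fold higher and 2 lower, against backgrounds of 11.7% and 5.62%, and with loess 3 and 3, against 7.56% and 7.05%. In experiment 2, 1 gene was 2-fold higher, Anp32a, which is 2.17% against a background of 0.855%, and 1 was 2-fold lower, H1f10, which is 2.17% against 0.446%. Read by its brightest probe set, Anp32a was at 0.21 there and no chromatin gene was 2-fold higher. Of the 33 chromatin genes measured in both experiments, 0 were past 2-fold in the same direction in both. Over all 3237 genes, 14 were higher and 2 lower by this rule.

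**Figure D2:**
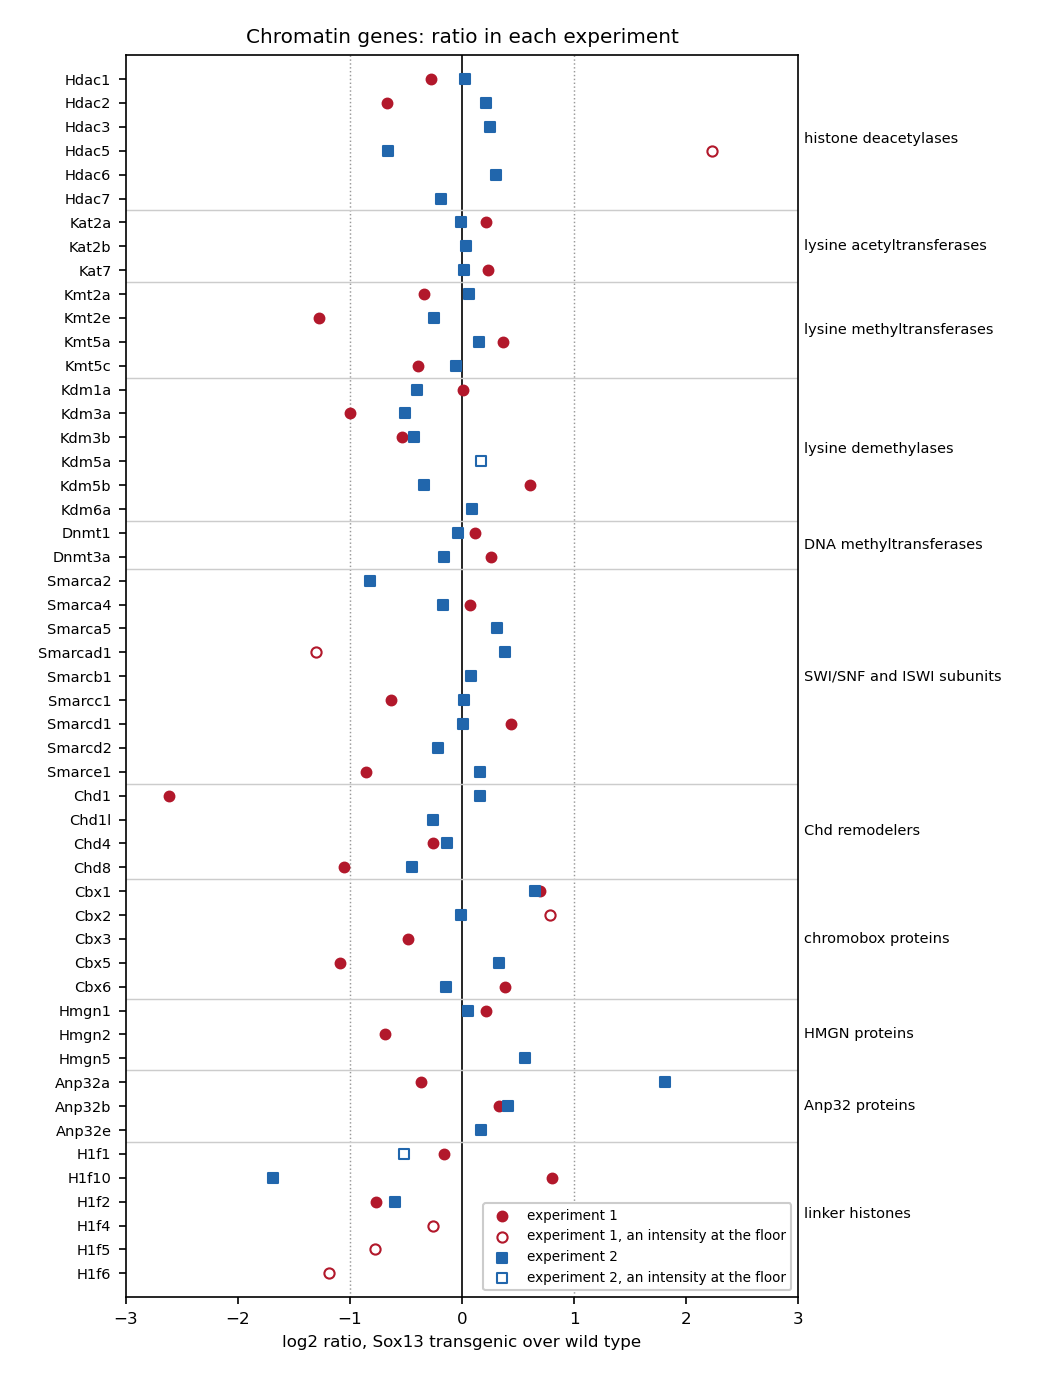
The log2 ratio, transgenic over wild type, (horizontal axis) is shown for each chromatin gene above the floor in at least 1 experiment, in experiment 1 (red circles) and experiment 2 (blue squares), by family, with open symbols where an intensity at the floor enters and dotted lines at 2-fold. Most experiment 2 values lie within 1 log2 unit of 0, with Anp32a at 1.81 and H1f10 at -1.69 outside, while experiment 1 values reach from Chd1 at -2.62 to Hdac5 at 2.23.

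The linker histones, which bind the nucleosome at the DNA entry and exit and tighten the fiber, were lower in 5 of 6 genes measured in experiment 1 and in 3 of 3 in experiment 2. Over all genes, 2138 of 3927 and 2938 of 5377 were lower. H1f4, H1f5 and H1f6 in experiment 1 and H1f1 in experiment 2 were above the floor only in the wild type. In the main setting these could therefore only count as lower. With quantile, median or loess scaling the linker count of experiment 1 was 4 of 6, since H1f1 turned to a ratio between 0.22 and 0.36. With a floor of 200, or only probe sets above the floor on all arrays, it was 2 of 3. That of experiment 2 was then 2 of 2. The messages of H1f1 to H1f5 are made mainly in S phase, whereas H1f10, also called H1x, is a replication-independent variant. Promoter sequences of H1f2, of the S-phase group, and of H1f10, the replication-independent variant, are shown. They are from RefSeq on GRCm38.p6, from 250 bases before to 50 after the start of transcription, with capitals on the motifs searched.
H1f2, chr13:23738557-23738856, plus strand: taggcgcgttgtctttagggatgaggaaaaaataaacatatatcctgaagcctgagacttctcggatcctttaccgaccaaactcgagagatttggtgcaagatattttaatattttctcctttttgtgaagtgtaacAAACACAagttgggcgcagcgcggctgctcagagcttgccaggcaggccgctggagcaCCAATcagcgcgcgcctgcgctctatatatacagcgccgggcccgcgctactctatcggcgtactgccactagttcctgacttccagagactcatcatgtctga
H1f10, chr6:87981433-87981732, minus strand: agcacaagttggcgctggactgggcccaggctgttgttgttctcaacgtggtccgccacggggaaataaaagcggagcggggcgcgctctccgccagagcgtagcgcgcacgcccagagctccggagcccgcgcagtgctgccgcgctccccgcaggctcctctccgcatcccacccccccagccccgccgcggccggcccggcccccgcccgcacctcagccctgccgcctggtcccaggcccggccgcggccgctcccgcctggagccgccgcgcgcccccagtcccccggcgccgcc
The capitals of H1f2 mark an H1 box (AAACACA, a sequence known from linker histone promoters) and a CCAAT box, while H1f10 held neither on either strand and had 40 CpG pairs against 19. An H1 box was found for 5 of the 8 linker histone genes on the arrays, H1f2, H1f3, H1f4, H1f5 and H1f6, and for 1 other chromatin gene, Dnmt1. Of all promoters of the same length, 7.18% held it. The promoter of H1f1, also lower in both experiments in the main setting, held no H1 box. A link between these motifs and the ratios was not tested.

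H1f2 read 215.2 in the transgenic and 366.2 in the wild-type sample of experiment 1, and 484.3 and 733.4 in experiment 2. The transgenic sample was thus the lower one in both pairs, by 1.70-fold and 1.51-fold, and the mean of both log2 ratios was -0.68 ± 0.34 (limma SE over the 2 experiments, adjusted p = 0.796). H1f1 read 157.4 and 176.1 in experiment 1, and below the floor against 143.1 in experiment 2. H1f10 crossed over, from 627.7 against 360.5 in experiment 1, which was 1.74-fold higher, to 226 against 726.7 in experiment 2, which was 3.22-fold lower. Its ratio of -1.69 was the lowest of all 5377 genes of experiment 2, and its mean over both experiments was -0.44 ± 0.48 (limma SE, n = 2, adjusted p = 0.892). H1f4, H1f5 and H1f6, the last known from the testis, were below the floor in the transgenic sample of experiment 1 and read 119.6, 171.8 and 228.7 in the wild type, at least 1.20-fold, 1.72-fold and 2.29-fold lower. All 3 were below the floor on both arrays of experiment 2, so those differences have no replicate.

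The Chd remodelers are ATP-driven enzymes, most of them with paired chromodomains. All 3 measured in experiment 1 were lower in the transgenic sample, and 3 of 4 in experiment 2, although Chd4 turned to 0.07 in experiment 1 with median scaling. The background was 2138 of 3927 genes lower in experiment 1 and 2938 of 5377 in experiment 2. Chd1, which works with the transcribing polymerase, read 241.9 in the transgenic and 1487 in the wild-type sample of experiment 1, 6.14-fold lower, and 3456 and 3092 in experiment 2, 1.12-fold higher. Its ratio of -2.62 was the seventh lowest of 3927 genes in experiment 1. The mean of -1.23 ± 0.51 (limma SE, n = 2, unadjusted p = 0.0317, adjusted p = 0.769) therefore rests on experiment 1, and the 2 experiments had opposite signs.
Chd8, which binds beta-catenin and restrains Wnt target genes, was lower in both pairs. It read 717.1 against 1481 in experiment 1, 2.07-fold lower, and 1257 against 1719 in experiment 2, 1.37-fold lower. Its mean over both was -0.75 ± 0.35 (log2, limma SE, n = 2, adjusted p = 0.774). Chd4, the motor of the NuRD deacetylase complex, read 3752 and 4181 on its probe sets against 3935 and 5729 in experiment 1, and 9942 against 10900 in experiment 2, a mean of -0.20 ± 0.34. Chd1l, a remodeler recruited to DNA damage, was on the U74A array alone and read 128 against 153.1.

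Among the lysine demethylases, the pair Kdm3a and Kdm3b, which strip methyl groups from lysine 9 of histone H3, were lower in both experiments. Kdm3a read 327.6 in the transgenic and 654.4 in the wild-type sample of experiment 1, and 2481 and 3527 in experiment 2. It was just under 2-fold and 1.42-fold lower, with a mean log2 ratio of -0.75 and a 95% interval of -1.50 to -0.01 (limma, n = 2, unadjusted p = 0.0476, adjusted p = 0.774). Kdm3b read 1103 against 1608 and 2284 against 3073, 1.46-fold and 1.35-fold lower, with a mean of -0.49 ± 0.34 (limma SE, n = 2, adjusted p = 0.863). The ratios of the pair were of one sign and in the same order in both experiments, with Kdm3a the lower. Kdm5b, a demethylase of lysine 4, went from 254.5 against 167 in experiment 1 to 302.6 against 382.1 in experiment 2. Kdm1a, the flavin-dependent demethylase LSD1, read 1961 against 1948 and then 131.6 against 174. Kdm5a reached 112.5 in the transgenic sample of experiment 2 and was otherwise below the floor, and Kdm6a, an X-linked demethylase of lysine 27, read 902.3 against 850.5.

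Among the lysine methyltransferases, Kmt2e, an MLL family member, was lower in both experiments, reading 632.6 against 1538 and 1211 against 1442. It was 2.43-fold and 1.19-fold lower, with a mean of -0.77 ± 0.37 (limma SE, n = 2, adjusted p = 0.792). Kmt5a, which places the first methyl group on lysine 20 of histone H4, was higher in both, at 1278 against 991.7 and 1524 against 1370, a mean of 0.26 ± 0.34. Kmt5c, which adds further methyl groups to the same lysine, was lower on both of its Mu11K probe sets, at 1621 against 2466 and 669.7 against 758.5, and read 798.7 against 828.1 in experiment 2. Kmt2a, the lysine 4 methyltransferase MLL1, read 455.2 against 575 in experiment 1 and, on its U74A probe sets, 624.6 against 652.1 and 1431 against 1258.

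The genes lower in both experiments under every scaling, floor and probe set rule tried were 5, Chd8, H1f2, Kdm3a, Kdm3b and Kmt2e. Those higher under all of them were 3, Anp32b, Kmt5a and Smarcd1. None of the 8 passed the adjusted test under any of these settings. The settings reuse the same arrays, and the share of all genes that kept one sign under every setting was not counted. In the main setting the same sign came up in 42.4% of the chromatin genes and in 54.3% of all genes. Smarcd1 had a log2 ratio of only 0.01 in experiment 2. The promoters of Kdm3a, Chd8 and Anp32b are shown as examples from these groups, beside that of H1f2, for Kdm3a at the most upstream of its 3 starts.
Kdm3a, chr6:71632868-71633167, minus strand: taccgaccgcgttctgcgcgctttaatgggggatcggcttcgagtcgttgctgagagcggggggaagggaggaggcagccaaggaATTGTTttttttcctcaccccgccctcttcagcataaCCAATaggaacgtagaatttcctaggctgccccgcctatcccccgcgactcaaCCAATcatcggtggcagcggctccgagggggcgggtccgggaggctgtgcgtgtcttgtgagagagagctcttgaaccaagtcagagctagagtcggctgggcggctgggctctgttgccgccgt
Chd8, chr14:52257711-52258010, minus strand: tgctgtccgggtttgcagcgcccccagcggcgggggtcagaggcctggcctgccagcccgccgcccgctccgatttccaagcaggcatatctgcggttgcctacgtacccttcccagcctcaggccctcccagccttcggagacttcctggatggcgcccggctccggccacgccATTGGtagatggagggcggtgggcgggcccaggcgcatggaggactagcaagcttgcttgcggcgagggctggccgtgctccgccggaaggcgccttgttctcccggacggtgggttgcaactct
Anp32b, chr4:46450676-46450975, plus strand: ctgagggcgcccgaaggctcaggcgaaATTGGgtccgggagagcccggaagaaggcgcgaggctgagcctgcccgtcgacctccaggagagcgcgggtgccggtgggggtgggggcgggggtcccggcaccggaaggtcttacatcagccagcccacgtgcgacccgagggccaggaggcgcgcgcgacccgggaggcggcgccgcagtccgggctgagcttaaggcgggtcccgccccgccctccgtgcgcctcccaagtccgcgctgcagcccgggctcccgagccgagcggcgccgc
Capitals mark, on either strand, the SOX core AACAAT, which Kdm3a holds once as ATTGTT, and the CCAAT box, which Kdm3a holds at 2 places and Chd8 and Anp32b at 1 each, read as ATTGG. Of the 3 promoters of Kdm3a, only the 1 shown held the SOX core or the CCAAT box. No motif searched lies within another. Promoters were in the table for 47 of the 56 genes, 63 promoters in all, and not for Cbx2, Chd1, Chd7, Hdac1, Hdac3, Kdm3b, Kdm5a, Kmt2e and Smarce1. Of the 63, 7.94% held the SOX core, against 10.7% of all 32851 promoters, and 6.35% held the TCF/LEF core CTTTGA, against 16%. The CCAAT box was in 49.2% against 37.4%. The median number of CpG pairs was 23 against 7. These are matches of letters, not sites.

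The histone deacetylases, which remove acetyl groups and close chromatin, gave no common direction, and all 3 that were measured in both experiments had opposite signs, although Hdac1 was above 0 in both with median scaling. Over all genes, 1480 of 3237 had opposite signs. In experiment 1, Hdac5 was above the floor only in the transgenic sample, so its sign there could only be higher. Hdac1, a catalytic subunit of the NuRD and Sin3 complexes, read 1549 against 1878 and 2918 against 2863. Its partner Hdac2 read 778 against 1240 in experiment 1, 1.59-fold lower, and 1084 against 934.6 in experiment 2, 1.16-fold higher. Hdac5, a class IIa enzyme that shuttles out of the nucleus, showed the widest gap. It read 468.3 in the transgenic sample of experiment 1 while the wild type was below the floor, at least 4.68-fold higher, but 700.7 against 1109 in experiment 2, 1.58-fold lower. Hdac7, the class IIa enzyme known for its high level in double-positive thymocytes, was on the U74A array alone and read 10500 against 12010, a log2 ratio of -0.19. Hdac3 and Hdac6, also on that array alone, read 588.2 against 494.9 and 768.5 against 624.5.
The lysine acetyltransferases had a median of 0.22 in experiment 1, which was 0.41 with quantile or loess and 0.59 with median scaling, and of 0.02 in experiment 2. Kat2a, the catalytic subunit of the SAGA complex, read 429.7 against 370.4 and 155.3 against 155.9. Kat7, which acetylates histone H3 and H4 near replication origins, had a log2 ratio of 0.23 in experiment 1, where its probe sets gave 0.66 and -0.20, and of 0.02 in experiment 2. Kat2b read 1303 against 1212 and 126.6 against 128.4 on its U74A probe sets. The DNA methyltransferases had a median of 0.19 in experiment 1, which was 0.32 with quantile, 0.31 with loess and 0.65 with median scaling, and of -0.10 in experiment 2. Dnmt1, which copies methylation at replication, read 2773 against 2557 and 3708 against 3799, and Dnmt3a, which sets new methylation, read 370.3 against 309.7 and 213.7 against 239.

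The Smarc genes, most of them SWI/SNF or ISWI subunits, had opposite signs in 4 of the 5 measured in both experiments. Smarca4, however, was below 0 in both with quantile or loess scaling, and Smarcad1 with its brightest probe set. The background was 1480 of 3237 genes with opposite signs. In experiment 1, Smarcad1 was above the floor only in the wild type, so its sign there could only be lower. Smarce1, the BAF57 subunit, read 654.2 against 1186 in experiment 1, 1.81-fold lower, and 340.5 against 305.4 in experiment 2. Smarcc1, the scaffold subunit BAF155, read 551.8 against 855.4, 1.55-fold lower, and 741.3 against 730.1. Smarca4, the ATPase BRG1, read 4807 against 4572 and 4646 against 5216. Smarcd1 was the gene of this family with the same sign, at 1137 against 835.6 in experiment 1 and 811.9 against 806.6 in experiment 2, a log2 ratio of 0.44 and 0.01. Smarcad1, a remodeler that helps restore silent chromatin after replication, was below the floor against 246.6 in experiment 1, at least 2.47-fold lower. In experiment 2 its probe sets disagreed, with 275.9 against 123.1 and 180.7 against 240, a log2 ratio of 1.16 and -0.41.
The other subunits were on the U74A array alone or below the floor in experiment 1. Smarca2, the alternative ATPase BRM, had the lowest ratio of the family there, at 144.5 against 255.3, 1.77-fold lower. Smarca5, the ISWI motor, was higher on both probe sets, at 494.2 against 432.4 and 915.4 against 681. Smarcb1, a core subunit, read 1168 against 1106. The 4 probe sets of Smarcd2 gave log2 ratios from -0.39 to 0.04.

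The chromobox proteins read methylated lysine through a chromodomain, as heterochromatin protein 1 (Cbx1, Cbx3, Cbx5) or in polycomb complexes (Cbx2, Cbx6, Cbx7). Cbx5 gave the most even picture within each experiment and opposite signs between them. Its 3 Mu11K probe sets read 304.2 against 716.4, 180.1 against 375.8 and 303.8 against 594.7, all near 2-fold lower in the transgenic sample, with log2 ratios from -1.24 to -0.97. Its U74A probe sets read 867.1 against 654.5 and 1063 against 887.7, with log2 ratios of 0.41 and 0.26.
Cbx1 had similar means in both experiments, 0.70 and 0.65, but its Mu11K probe sets went apart. One read 567.5 against 120.4, 4.71-fold higher, and the other 1098 against 1970, 1.79-fold lower, and in experiment 2 the probe set above the floor read 249.3 against 159.3. The mean of 0.67 ± 0.34 (limma SE, n = 2, adjusted p = 0.796) became -0.10 when each gene was read by its brightest probe set, 1.44 without probe sets of family, relaxed, incomplete or grouped design, and 0.32 with a floor of 200. Cbx3 read 674.7 against 940.2 in experiment 1. Cbx2 was higher on both Mu11K probe sets, at 901 against 766.5 and 254.8 against a reading below the floor, and gave 0.14 and -0.15 in experiment 2. Cbx6 read 1835 against 1407 in experiment 1 and 400 against 486.1 and 1550 against 1549 in experiment 2.

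Among the HMGN proteins, which bind nucleosomes and loosen the compaction by linker histones, Hmgn1 read 8987 against 7753 and 14520 against 14010, close to equal in both pairs. Hmgn2 was lower on both Mu11K probe sets, at 5763 against 8968 and 6581 against 11030, 1.56-fold and 1.68-fold. Hmgn5 was on the U74A array alone and read 1625 against 1101, 1.48-fold higher. The acidic Anp32 proteins act as histone chaperones and as inhibitors of histone acetylation. Anp32b was higher in both experiments, at 8375 against 6642 and 10530 against 7906, 1.26-fold and 1.33-fold, with a mean of 0.37 ± 0.34 (limma SE, n = 2, adjusted p = 0.882). Anp32e, which removes the variant H2A.Z from chromatin, was higher on both U74A probe sets, at 3644 against 3146 and 7194 against 6564.
Anp32a was the extreme of the family. One U74A probe set read 2794 in the transgenic and 261.8 in the wild-type sample, 10.7-fold higher, which was the highest ratio of all 6393 probe sets of that array. The other U74A probe set read 1696 against 1466, 1.16-fold higher. The Mu11K probe sets read 1049 against 1622 and 1205 against 1294, both lower. The large value was thus seen on 1 of 4 probe sets of this gene, and the mean log2 ratio of the gene was 0.72 ± 0.45 (limma SE, n = 2, adjusted p = 0.829).

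**Figure D3:**
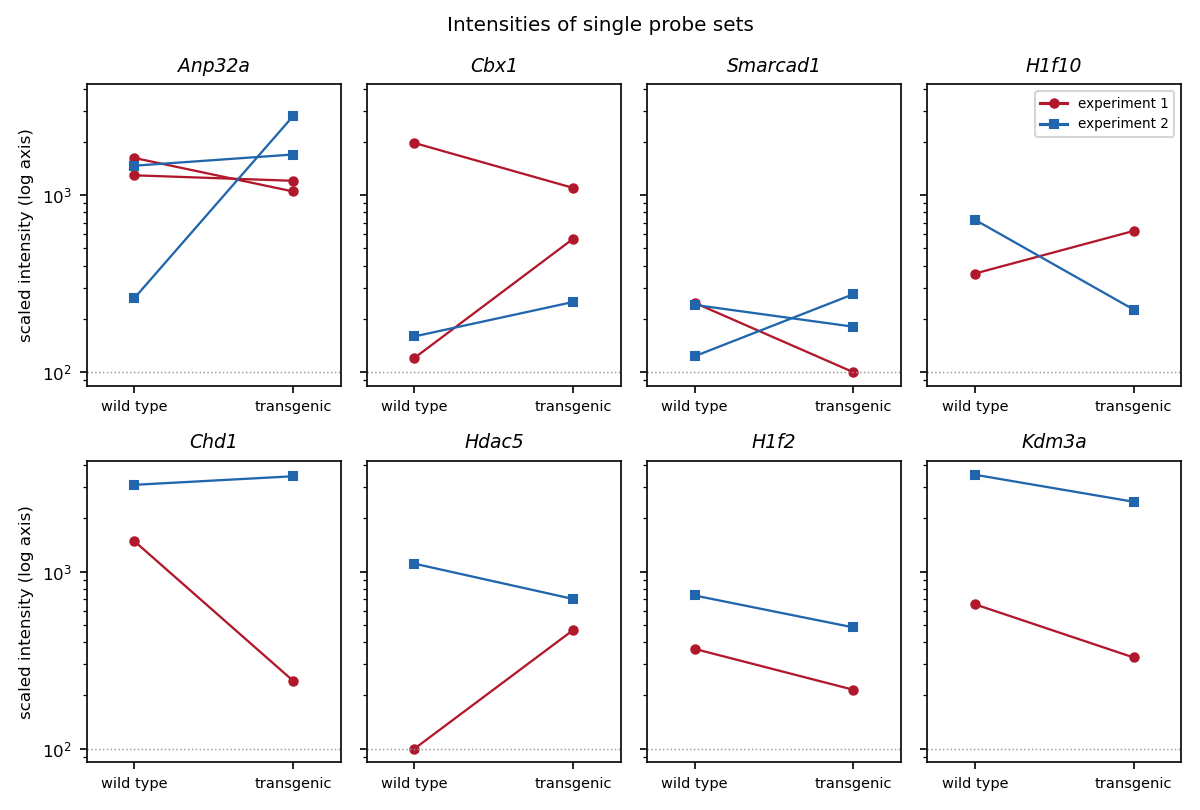
Scaled intensity on a log axis is drawn for each probe set of 8 chromatin genes, from wild type to transgenic, in experiment 1 (red) and experiment 2 (blue), with the floor of 100 dotted. Lines of one gene cross for Anp32a, Cbx1, Smarcad1 and H1f10, whereas those of H1f2 and Kdm3a slope down in both experiments.

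How far probe sets of one gene differed can be set beside these values. In all, 8 chromatin genes had several probe sets above the floor in experiment 1, with a median range of 0.48 log2 units and 2 genes, or 25%, over 1 unit, against 0.35 and 13.8% of 654 genes of the whole array pair. In experiment 2 there were 10 such genes, with a median range of 0.26 and 2 genes, or 20%, over 1 unit, against 0.25 and 3.43% of 875 genes. The genes over 1 unit were Cbx1 and Cbx2 in experiment 1 and Anp32a and Smarcad1 in experiment 2. For 12 chromatin genes, probe sets with the same sequence record on the Mu11K and U74A designs gave a ratio in both experiments. The ratios of these had the same sign for 5, among them H1f2 and Hmgn1 and, as the mean of its Mu11K probe sets at 2.24 and -0.84, Cbx1, and opposite signs for 7, among them Chd1, Cbx5, Hdac2 and Anp32a, whose record gave -0.63 in experiment 1 and 3.42 in experiment 2. The same count by record was not made over all genes, so it has no background. Regardless of record, 54.3% of all genes measured in both experiments had the same sign.

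The arrays of experiment 1 differed in the balance of higher and lower readings. On Mu11K A, 5 chromatin probe sets were higher and 17 lower, with a median of -0.50 beside -0.07 for all probe sets, and on Mu11K B, 12 were higher and 13 lower, with a median of -0.10 beside -0.09. Gene length moved with the ratio in experiment 1. The 19 longer chromatin genes had a median of -0.37 and the 19 shorter ones of -0.16, and among all genes the medians were -0.28 and 0.11. Across genes, which are not independent replicates, Spearman's rho of length with ratio was -0.149 in 38 chromatin genes and -0.297 in 3922 genes, and in experiment 2 it was -0.0427 and -0.0575. The 3' over 5' intensity ratio of the actin control was 1.08 in the transgenic and 1.32 in the wild-type sample on Mu11K B and 1.36 and 1.58 on U74A, and that of Gapdh 1.18 and 0.87 and then 0.766 and 0.792. The dimmer pyruvate carboxylase control gave 0.801 and 0.0671 and then 1.39 and 0.878. That of the transferrin receptor gave 12.5 in the wild type of Mu11K B, with no transgenic ratio, and 4.13 and 2.48 on U74A. For Mu11K A no wild-type ratio was available. The part of length and RNA quality in the chromatin values was not tested.

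Other chromatin genes, from a list of complexes outside the symbols above, also split between the experiments. Of 52 measured in both experiments, 10 were higher in both and 10 lower in both, beside 23.9% and 30.4% of all genes. The other 32 were of opposite sign, so that 38.5% had the same sign, beside 54.3% of all genes. Of these 52, 0 passed the limma test in either direction. At an unadjusted p under 0.05 there were 0 higher and 1 lower, the insulator protein Ctcf at -1.80 and -0.03, named after its values were seen. With median scaling, 16 of the 52 were higher and 7 lower in both, beside 38.2% and 16.7% of all genes. The median log2 ratio was -0.38 over 58 genes in experiment 1 and 0.08 over 75 in experiment 2, beside -0.07 and -0.03 over all genes. The former was -0.23 with quantile, -0.22 with loess and -0.03 with median scaling, and -0.18 with no filter. By group, polycomb and histone methyltransferase genes had medians of 0.01 and 0.04, acetylation and deacetylase complexes of -0.43 and -0.02, remodeling and nuclear architecture genes of -0.71 and 0.09, and histone chaperones, variants and HMG proteins of -0.25 and 0.25, experiment 1 before experiment 2. Lower in both were the corepressor scaffold Sin3b at -0.66, a value set by the floor that was -1.66 with a floor of 50, and -0.74, the methyl-CpG binder Mbd2 at -0.48 and -0.60, the thymocyte genome organizer Satb1 at -0.55 and -0.34, and Ezh1, a polycomb methyltransferase, at -0.39 and -0.30. Higher in both were the arginine methyltransferase Prmt1 at 0.82 and 0.31, Daxx, a chaperone of histone H3.3, at 0.37 and 0.23, and Ehmt2, a lysine 9 methyltransferase, at 0.44 and 0.15. None of these passed the limma test, with adjusted p from 0.792 for Sin3b to 0.899 for Ehmt2.

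Cell cycle genes were set beside the S-phase linker histones and the replication-linked members. In experiment 2, 37 of 38 were higher in the transgenic sample, with a median of 0.39, and in experiment 1, 14 were higher and 18 lower, with a median of -0.13. The background was 45.4% of all genes higher in experiment 2 and 45.6% in experiment 1. Of 30 measured in both, 13 were higher in both and 0 lower in both, beside 23.9% and 30.4% of all genes. Of these 30, 0 passed the limma test in either direction. At an unadjusted p under 0.05 there were 0 higher and 1 lower, the proliferation marker Mki67 at -2.49 and 0.28, named after its values were seen. With median scaling, 23 were higher and 9 lower in experiment 1, where the list median was 0.26 beside 0.27 for all genes. Tk1 gave 0.41 and 0.48, Plk1 0.38 and 0.52 and Mcm7 0.64 and 0.37. Beside the list medians of -0.13 and 0.39, H1f2 had ratios of -0.77 and -0.60 and Dnmt1 of 0.12 and -0.04. The part of proliferation in the chromatin values was not tested.

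**Figure D4:**
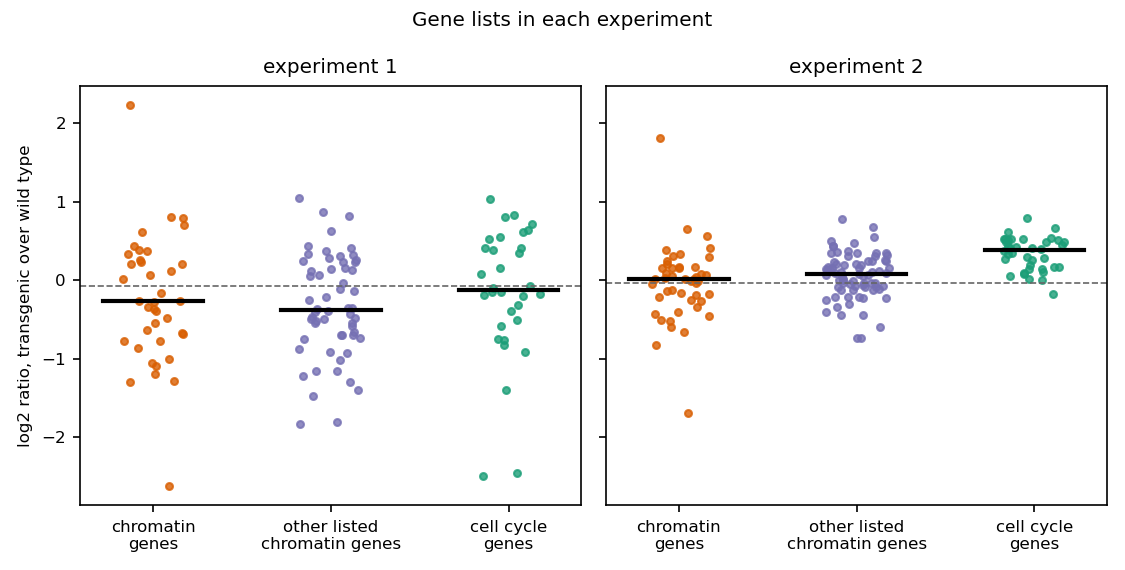
Log2 ratios of transgenic over wild type are shown for each gene (points) of the chromatin families, of the other listed chromatin genes and of the cell cycle list in each experiment, with the list's median (black bar) and the median of all genes (dashed line). The cell cycle genes of experiment 2 lie at a median of 0.39, and the chromatin genes spread to both sides of their medians of -0.27 and 0.01.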

How the data were processed

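The deposited values are linear probe set intensities, 1 per probe set and array, which the authors made with Microarray Analysis Software versions 4 and 5 (Affymetrix) per the series text and with MAS5 per the submitters' processing notes. Which version and scaling target applied to which array is not given in the sources used here. Left out were 55 control probe sets of Mu11K A, 55 of Mu11K B and 66 of U74A, and 21 Mu11K A probe sets without a wild-type reading. A 2% trimmed mean of 500 was set for each array, readings under 100 became 100 and log2 followed. Probe sets with 1 symbol in the platform annotation named a gene, and those above the floor on at least 1 array of an experiment were averaged. The share of probe sets over the floor was 46.9% to 57.4% per array. Negative intensities made up 17.3% to 29.2% of the Mu11K values and 0 of U74A.

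Per gene, limma 3.58.1 (R 4.3.3) was fitted to the ratio of each experiment, which pairs the arrays, as a two-sided test of the intercept, with Benjamini-Hochberg adjustment over 3237 genes and a threshold of 0.05. Its shared variance had 12.1 prior degrees of freedom, so that an SE mostly reflects all genes. The fit was tested on simulated data. Within an experiment there is 1 array per genotype and no test, and genes past 2-fold were counted.

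Members, gene lists (cell type markers, cell cycle, other chromatin genes) and rules were chosen with earlier results of these data known. Any member could be named, and up to 6 genes per direction of the other chromatin and cell cycle lists by the smaller absolute ratio of one sign. Alternatives were other floors, filters, scalings and probe set rules, an unpaired fit, leaving out each experiment and, added after seeing the data, leaving out probe sets of family, relaxed, incomplete or grouped design.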

Additional observations from a re-analysis of the deposited data

Results flagged for a closer look

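Differences between the experiments were flagged for 4 of the 33 chromatin genes measured in both. Their log2 ratios of transgenic over wild type had opposite signs and lay over 2 log2 units apart. The share of all genes that met this rule was not counted, so whether 4 is many cannot be said. Given as experiment 1 minus experiment 2, the gap was 2.89 for Hdac5, where the value of experiment 1 is a bound, -2.78 for Chd1, 2.49 for H1f10 and -2.18 for Anp32a. The difference was not tested, since each experiment has 1 array per genotype. For Anp32a it rests on 1 of the U74A probe sets.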

How the results depend on the processing

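No chromatin gene passed limma under any alternative run, and the mean log2 ratio over both experiments kept its sign in 282 of 290 pairs of gene and alternative. It turned for 8 genes. Chromatin genes of opposite sign in the experiments, 19 in the main count, were 16 to 22. With median scaling, Hdac1 was 0.07, Kdm1a 0.06, Kmt2a 0.06 and Smarca4 0.21, with loess Dnmt1 was -0.01, and with the brightest probe set Anp32a was -0.21, Cbx1 -0.10 and Kat7 -0.09. The mean over the 33 genes was -0.12, and -0.18 to -0.06 with 1 experiment left out.

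The number of genes of the whole array that passed, 5 higher and 0 lower, was 0 higher in the unpaired fit, without the pairing of arrays by experiment, and also with a floor of 50, no filter, or without family and relaxed probe sets. It was 2 when every array had to be above the floor, 1 with the brightest probe set, and 12, 21 and 13 with quantile, median and loess scaling. Genes lower were 3, 5 and 2 under these scalings and 1 with a floor of 200. In experiment 1 the chromatin median of -0.27 was -0.16 with no filter, 0.04 with median scaling and -0.40 with the brightest probe set. Chromatin genes 2-fold higher there, 1 in the main count, were 2 with a floor of 50, with quantile scaling and without family probe sets, 0 when every array had to be above the floor, 4 with median scaling and 3 with loess. Those 2-fold lower, 6 in the main count, were 2 with median scaling and 3 with loess. Over all genes of experiment 1 the shares moved as well, from 5.25% to 11.7% and 7.56% for 2-fold higher and from 11.7% to 5.62% and 7.05% for 2-fold lower with median and loess scaling. In experiment 2, 2 were 2-fold lower with a floor of 50 and 0 were 2-fold higher with the brightest probe set. The cause of these shifts was not tested. Signal over background limits the low genes, with 5 of 56 below the floor everywhere.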
